A study of Mus musculus with 62 samples.

Results

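The clustered protocadherins of the mouse were followed through striatal RNA of 2 Huntington's disease models. The members were all protein-coding genes whose symbol is Pcdha, Pcdhb or Pcdhg followed by an isoform name, 57 of the 48795 genes in the count table. They comprise 14 alpha genes, 22 beta genes and 21 gamma genes, and all 57 passed the filter on low counts in every comparison. The study asked what neurons and astrocytes contribute to the disease by lowering mutant Huntingtin, the product of the expanded Htt gene, in either cell type.

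In the R6/2 series, mice carrying the R6/2 transgene (a fragment of the mutant human Huntingtin gene) were compared with mice labelled NCAR, a name the labels do not expand. Viruses of the PHP.eB type were given at 4 weeks and bulk RNA of the striatum was taken at 11 weeks. The 8 groups crossed both genotypes with 4 viruses: A-ZFP and N-ZFP, which repress mutant Huntingtin, and A-Delta and N-Delta, their controls. The A viruses are labelled astrocyte and the N viruses neuron, although the treatment text calls the N viruses of this series astrocytic. In the zQ175 series, zQ175 mice (a knock-in of the expanded repeat) and WT mice received N-ZFP or N-Delta into the striatum at 6 months and were sampled at 12 months. Bulk and neuronal RNA of each of these 4 combinations gave the other 8 groups. Every group had 4 libraries except bulk R6/2 A-ZFP and bulk WT N-ZFP, which had 3. All animals carried a virus, so no group shows untreated striatum. The labels name no batch and do not say that libraries of a group came from separate animals. The p-values below measure the spread between these libraries, which may be technical.

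Clustered protocadherins are cadherin-family adhesion proteins of the neuronal surface that bind identical copies on other membranes. Each neuron transcribes its own small mix of alternate isoforms, chosen by promoter through CTCF, cohesin and DNA methylation, and matching mixes let sister branches of a neuron recognise and avoid each other. The C-type isoforms (Pcdhac1, Pcdhac2, Pcdhgc3, Pcdhgc4 and Pcdhgc5) stand at the ends of the alpha and gamma clusters and are not chosen at random. Alpha and gamma genes splice a variable exon to constant exons shared within the cluster, whereas beta genes stand alone.

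All members lie on chromosome 18 (GRCm38): the alpha cluster at 36930184 to 37187661, the beta cluster at 37264938 to 37524479 and the gamma cluster at 37661793 to 37841873. In the annotation each beta gene has 1 exon, and 90.3 to 100% of its exonic bases belong to no other gene. Of the exonic bases of alpha genes a median of 46.4% are their own, and of gamma genes 55.5%, since the constant exons overlap within a cluster. How reads of the constant exons were counted is not given in the sources used here. Of 690 genes in the table with no base of their own on their strand, 563 were at 0 in every library and 127 held counts. The longest transcripts had a median length of 5350 bases in the alpha, 3714 in the beta and 4723 in the gamma cluster. Levels between genes are given below as CPM, a read count normalised to library size, per kb of own bases, and comparisons of the same gene between groups as CPM.

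Library totals ran from 49237583 to 101295189 counts in the R6/2 series, from 8664055 to 11211827 in zQ175-series bulk libraries and from 4610476 to 12200813 in neuronal libraries. Members took group means of 0.0536 to 0.0845% of counts in the R6/2 series, 0.0917 to 0.104% in zQ175-series bulk RNA and 0.122 to 0.139% in neuronal RNA. Libraries of the R6/2 series also differed in how long and short genes were represented. This was summarised for each library by a length index, the correlation across protein-coding genes between transcript length and the deviation of the library from the mean of all libraries. The index was between -0.48 and -0.24 in the 4 NCAR N-Delta libraries, between 0.18 and 0.31 in the 4 R6/2 N-Delta libraries, and spread from -0.35 to 0.40 over the 4 R6/2 N-ZFP libraries. Where members were called in a single comparison of these groups, the count is given with and without an adjustment for it. Counts by length bin, of genes without overlap and over several comparisons are not adjusted.

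In the R6/2 series 3 C-type isoforms had the highest levels per kb of own bases. Averaged over the 31 libraries of the R6/2 series, Pcdhgc5, an isoform known to bind GABA-A receptors, had 17.4 CPM per kb. Pcdhgc3 followed with 16.1 and Pcdhac2, which serotonergic axons need for tiling, with 12.0 CPM per kb. Of the alternate isoforms there, Pcdhga4 had 8.63 and Pcdhga6 6.69 CPM per kb of own bases, an order that turned per kb of all exonic bases (2.87 and 3.69). The beta gene Pcdhb17 had 5.82 by either length. It was thus below those 2 genes per kb of own bases and above them per kb of all exonic bases. Pcdha8 was lowest at 0.134 CPM per kb. The other C-type genes were not abundant: Pcdhgc4, which interneurons need to survive, had 2.36 CPM per kb and Pcdhac1 had 0.940. The order differed in the zQ175 series. In bulk RNA Pcdhgc3 and Pcdhgc5 were first with 21.7 and 18.6 CPM per kb, and Pcdhac2 was below 3 alternate gamma isoforms, Pcdhgb6 (13.8), Pcdhga6 (13.2) and Pcdhga8. In neuronal RNA Pcdhgc5 and Pcdhac2 were first with 27.1 and 21.8, followed by Pcdhga6 with 21.7, and Pcdhgc3 ranked 13 of 57 with 10.8.

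The group means of Pcdhgc5 ran from 13.98 CPM per kb in R6/2 A-ZFP to 23.1 in NCAR A-Delta among bulk groups, and from 23.0 in zQ175 N-ZFP to 30.1 in WT N-Delta among neuronal groups. Pcdhgc3 had group means of 11.2 to 22.1 CPM per kb in bulk groups and 8.07 to 13.7 in neuronal ones. These bulk ranges pool the 2 series, while neuronal RNA comes from the zQ175 series only. Within that series Pcdhgc3 averaged 21.7 CPM per kb in bulk and 10.8 in neuronal libraries, and Pcdhgc5 18.6 and 27.1. Taking each cluster over its summed own bases, the NCAR A-Delta libraries had 2.26 ± 0.161 CPM per kb (SD, n = 4) for alpha, 2.64 ± 0.278 for beta and 5.91 ± 0.605 for gamma. Neuronal WT N-Delta libraries had 3.80 ± 0.218, 3.98 ± 0.0739 and 12.1 ± 0.491. Beta exceeded alpha in each of the 4 NCAR A-Delta libraries. In the neuronal group the 2 overlapped, at 3.54 to 4.03 for alpha and 3.89 to 4.05 for beta. Gamma stood above both in each group. Per kb of all exonic bases alpha and beta were apart in the neuronal group. In the joint fit with bulk libraries they were at 1.60 to 1.83 and 3.90 to 4.05.

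Neuronal RNA of WT N-Delta mice held more of most clustered protocadherins than bulk RNA of the same group. With edgeR's quasi-likelihood test and Benjamini-Hochberg adjustment over all genes tested, which serve for every call below at an adjusted p under 0.05, 35 members were higher and 1 was lower. Of all genes, 30.3% were called higher and 34.7% lower. Higher members numbered 5 of 14 alpha, 14 of 22 beta and 16 of 21 gamma genes. The median log2 difference over members was 0.45, against -0.03 over all genes.

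Pcdhgc3 was the 1 member that fell in neuronal RNA. It stood at 79.3, 66.2, 77.5 and 65.1 CPM in the bulk libraries and at 39.5, 33.2, 28.4 and 36.1 in the neuronal ones. Every neuronal library was below every bulk library, a log2 difference of -1.07 ± 0.09 (SE; adjusted p 5.98e-09). Pcdhac2 was at 42.9, 40.8, 45.3 and 31.1 CPM in bulk RNA and at 78.6, 76.1, 67.6 and 72.2 in neuronal RNA, with no overlap (0.88 ± 0.09, adjusted p 4.09e-08). Pcdhgc5 was at 103, 79.9, 98.7 and 72.1 against 148, 138, 150 and 124 CPM, again with no overlap (0.67 ± 0.10, adjusted p 4.72e-06). Pcdhgc4 rose by 0.47 ± 0.13 on the log2 scale although its groups overlapped, and its adjusted p of 0.00458 became 0.063 with the length index in the fit. For Pcdhac1 the log2 difference was 0.16 (adjusted p 0.515).

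Among alternate isoforms, Pcdhga8 rose by 0.72 (adjusted p 1.27e-07) and Pcdhga6 by 0.78 (adjusted p 1.66e-07) on the log2 scale. Pcdhb17 rose by 0.45 (adjusted p 2.3e-06), Pcdhb18 by 0.68 and Pcdhb20 by 0.59. Pcdha5 rose by 0.72 (adjusted p 0.000841) and Pcdha12 by 0.67 (adjusted p 0.00257). Glial markers moved the opposite way in these libraries: the summed level of 8 astrocyte markers was 4556 to 5719 CPM in bulk and 1326 to 2232 in neuronal RNA, and that of 6 oligodendrocyte markers 5541 to 7807 against 1433 to 2459. Column names call the bulk and neuronal libraries input and IP under the same numbers, and no label says whether they came from the same animals.

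**Figure D1:**
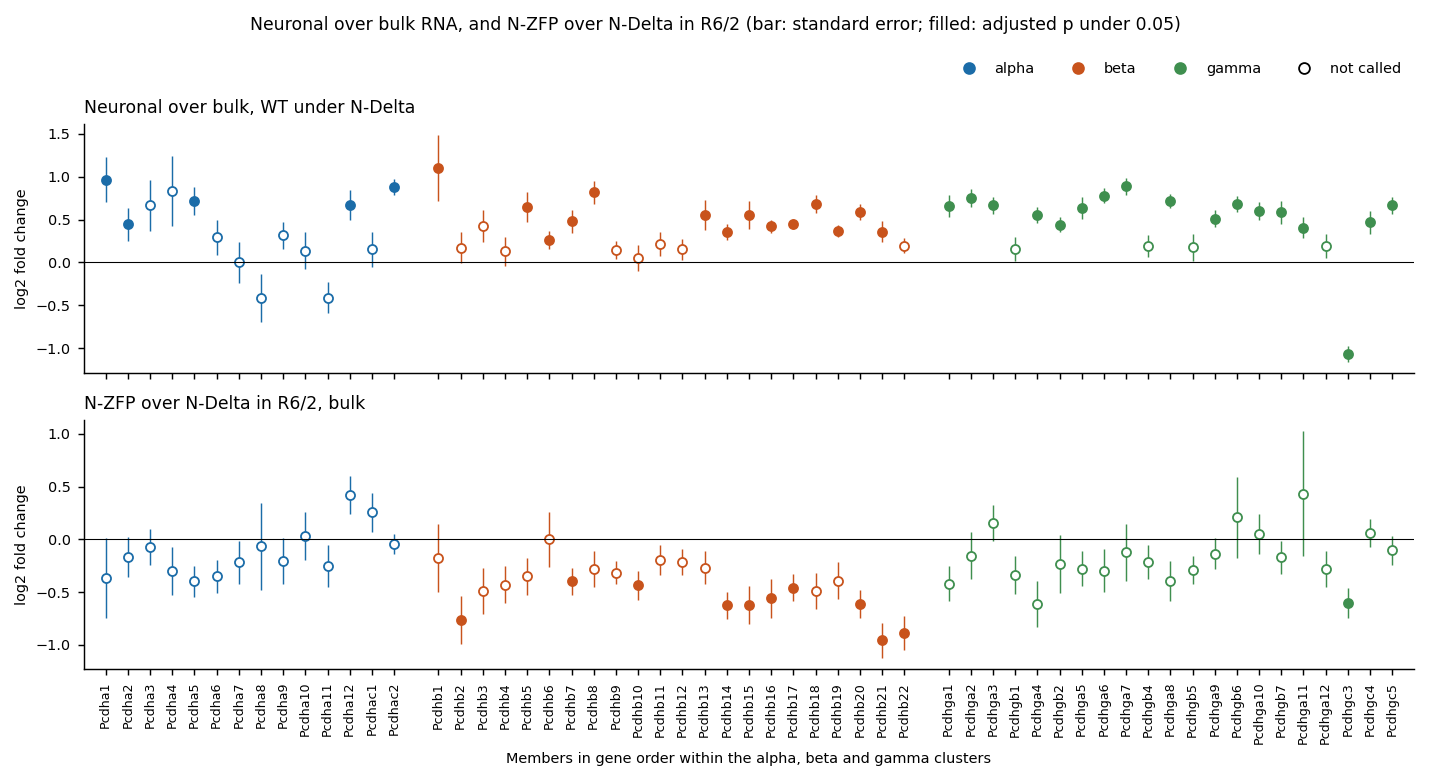
Log2 fold changes of the 57 members in their order along the alpha, beta and gamma clusters, for neuronal over bulk RNA in WT N-Delta and for N-ZFP over N-Delta in R6/2 (bars, standard errors; filled points, adjusted p under 0.05). Pcdhgc3 is low among gamma genes in the first comparison (-1.07), and 21 of the 22 beta genes lie below 0 in the second, with a median of -0.43.

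The R6/2 genotype under A-Delta was associated with more RNA of some beta genes and less of 3 of the 5 C-type genes. Of the members, 9 were higher and 4 lower, against 13.7% and 15.3% of all genes. All 9 higher members were beta genes, and the 4 lower ones were Pcdhac1, Pcdhac2, Pcdha12 and Pcdhgc5. The median log2 fold change was 0.29 in the beta cluster, with 18 of 22 genes above 0, 0.12 in the alpha cluster and -0.08 in the gamma cluster, against 0.02 over all genes. In 8 of the 22 beta genes every R6/2 library exceeded every NCAR library, as it did in 15.6% of all genes.

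Summed beta cluster RNA was 231, 216, 245 and 276 CPM in the NCAR libraries and 338, 268, 300 and 286 in the R6/2 libraries, which overlapped in 1 library of each. Pcdhb9 stood at 14.9, 13.7, 14.4 and 14.2 CPM in NCAR and at 24.6, 20.7, 21.6 and 24.2 in R6/2. All R6/2 libraries were above all NCAR ones (log2 0.67 ± 0.11, adjusted p 2.48e-05). Pcdhb12 went from 8.83, 11.2, 10.9 and 10.01 CPM to 18.9, 17.3, 14.4 and 17.99, also without overlap (0.74 ± 0.13, adjusted p 6.16e-05). Pcdhb7 averaged 8.76 CPM in NCAR and 13.0 in R6/2 (0.57 ± 0.13, adjusted p 0.00137). Proteins of the beta cluster lack the constant cytoplasmic domain that alpha and gamma proteins share within their clusters.

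Pcdhac1 stood at 2.85, 3.64, 2.82 and 4.06 CPM in NCAR and at 1.70, 1.14, 2.07 and 1.41 in R6/2, with every R6/2 library lower (log2 -1.07 ± 0.18, adjusted p 5.91e-05). Pcdhgc5 stood at 107, 92.4, 110 and 115 against 62.8, 49.9, 75.8 and 69.9 CPM, again with every R6/2 library lower (-0.72 ± 0.14, adjusted p 0.000226). Pcdhac2 stood at 46.1, 40.4, 41.4 and 43.5 against 35.7, 28.9, 32.7 and 33.0 CPM, with no overlap (-0.40 ± 0.09, adjusted p 0.00147). Not all C-type genes were lower. Pcdhgc3 averaged 49.4 CPM in NCAR and 60.3 in R6/2 (0.29 ± 0.14, adjusted p 0.141) and passed the threshold as higher once transcript length and GC content were corrected for (0.34, adjusted p 0.0091), and Pcdhgc4 was at -0.21 ± 0.13 (adjusted p 0.246). Pcdha12 fell by 0.51 (adjusted p 0.0317), and its adjusted p was 0.051 without the filter on low counts.

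**Figure D2:**
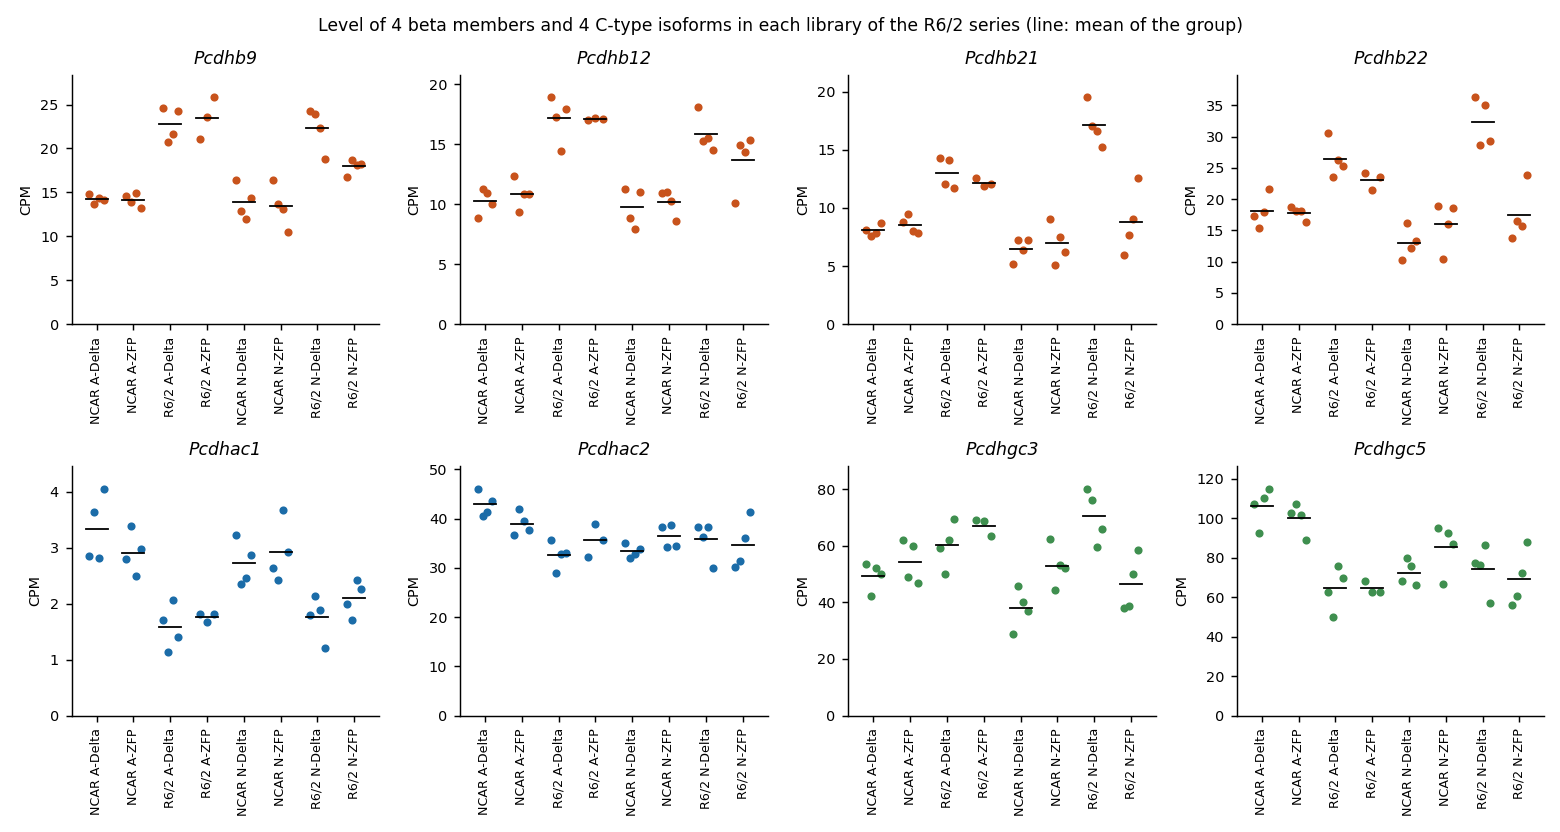
CPM of 4 beta genes and 4 C-type genes in each library of the R6/2 series (points), by group, with the group mean as a line. Pcdhb9 separates R6/2 from NCAR under A-Delta (20.7 to 24.6 against 13.7 to 14.9 CPM), and Pcdhgc5 separates them in the opposite direction (49.9 to 75.8 against 92.4 to 115).

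Cell-type markers shifted in the same libraries. The summed level of 10 striatal projection neuron markers was 4988 to 7357 CPM in NCAR A-Delta and 1538 to 2371 in R6/2 A-Delta. The 8 general neuron markers summed to 7670 to 8394 against 5847 to 6671 CPM, the 6 oligodendrocyte markers to 7721 to 9332 against 4339 to 6175, the 8 astrocyte markers to 3559 to 4186 against 2531 to 2983 and the 5 cortex markers to 754.6 to 1061 against 408.6 to 565.7. Microglial markers overlapped (419.2 to 446.7 against 386.0 to 425.2 CPM), and none of these genes was at 0. The part of these shifts in the protocadherin results was not tested. In bulk RNA, fewer cells of a type and less RNA per cell cannot be told apart.

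Under N-Delta, R6/2 libraries held more RNA of members from all 3 clusters than NCAR libraries. The calls were 40 higher and 1 lower, against 27.1% and 28.4% of all genes. Higher members numbered 7 of 14 alpha, 19 of 22 beta and 14 of 21 gamma genes, and the median log2 fold change was 0.54, 0.78 and 0.55, against -0.03 over all genes. Every one of the 22 beta and 21 gamma estimates was above 0. In 19 beta genes all R6/2 libraries exceeded all NCAR libraries, as they did in 24.2% of all genes.

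Pcdhb21 had the smallest p of the beta cluster: it stood at 5.15, 7.25, 6.38 and 7.22 CPM in NCAR N-Delta and at 19.5, 17.1, 16.6 and 15.2 in R6/2 N-Delta. The groups did not overlap (log2 1.40 ± 0.17, adjusted p 2.59e-07). Pcdhb22 stood at 10.3, 16.1, 12.2 and 13.4 against 36.3, 28.7, 35.0 and 29.3 CPM, likewise apart (1.31 ± 0.16, adjusted p 4.63e-07). Pcdhb17 stood at 19.3, 21.5, 19.7 and 19.8 against 39.4, 33.9, 38.8 and 33.0 CPM (0.85 ± 0.13, adjusted p 5.55e-06), again with no overlap.

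In the gamma cluster, Pcdhgc3 stood at 29.0, 45.8, 40.0 and 36.9 CPM in NCAR and at 80.3, 76.1, 59.7 and 65.8 in R6/2, without overlap (0.89 ± 0.14, adjusted p 1.39e-05). Pcdhgb1 rose by 0.90 ± 0.18 (adjusted p 0.000194) and Pcdhga9 by 0.70 ± 0.15 (adjusted p 0.000281). Of the alpha genes, Pcdha6 averaged 2.88 CPM in NCAR and 5.40 in R6/2 (0.90 ± 0.16, adjusted p 5.22e-05), and Pcdha5 rose by 0.69 (adjusted p 0.000352) and Pcdha7 by 0.73 (adjusted p 0.00432). Pcdhac1 was the 1 member that fell, from 3.23, 2.35, 2.45 and 2.86 CPM to 1.80, 2.14, 1.88 and 1.20, with no overlap (-0.63 ± 0.18, adjusted p 0.00509). The remaining C-type genes gave 0.10 for Pcdhac2 (adjusted p 0.353), 0.12 for Pcdhgc4 (adjusted p 0.45) and 0.04 for Pcdhgc5 (adjusted p 0.828). With the length index in the fit, the calls of Pcdhb21 (0.76), Pcdhb22 (0.73), Pcdhb17 (0.40) and Pcdhac1 (-0.78) were kept. The others were lost: the values were 0.36 for Pcdhgc3 (adjusted p 0.0502), 0.24 for Pcdhgb1 (0.353), 0.14 for Pcdhga9 (0.507), 0.44 for Pcdha6 (0.0924), 0.30 for Pcdha5 (0.247) and 0.38 for Pcdha7 (0.349). With length and GC offsets Pcdha7 also lost its call (0.46, adjusted p 0.0553).

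Under N-Delta the fold changes of all protein-coding genes went with transcript length, and its part in the member counts was not tested. Over all protein-coding genes the median log2 fold change ran from -0.65 for transcripts under 1 kb to 0.54 for those over 8 kb, and the share called higher from 3.10% to 65.2%. In the bin of 4 to 6 kb, which holds 40 members, 44.4% of genes were called higher and the median was 0.20. The 40 members there had a median of 0.56, with 26 higher and 1 lower. The 10 members of 3 to 4 kb, all beta genes, had a median of 0.70 against 0.06 for all genes of that length, and the 4 members of 2 to 3 kb 0.96 against -0.13. Across the members of a cluster the correlation of log2 fold change with log2 transcript length was 0.28 in beta (n = 22), -0.27 in alpha (n = 14) and -0.57 in gamma (n = 21). Over all 15827 protein-coding genes it was 0.37. These points share libraries and are given as a description.

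With length and GC content corrected for in each library, 28 members were higher and 4 lower. With the length index as a covariate, 6 beta genes were higher, and 1 alpha and 1 gamma gene lower, while calls over all genes went from 12071 to 4965. Without NCAR N-Delta libraries 1 and 4, 32 members were called. Because the index did not overlap between the NCAR and R6/2 groups, genotype and index cannot be told apart in this comparison. The marker sums also differed: projection neuron markers were at 3639 to 6119 against 2397 to 2918 CPM, vascular markers at 78.7 to 120.8 against 179.7 to 230.5 and oligodendrocyte markers at 8832 to 11430 against 5868 to 7088, and the part of these was not tested.

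**Figure D3:**
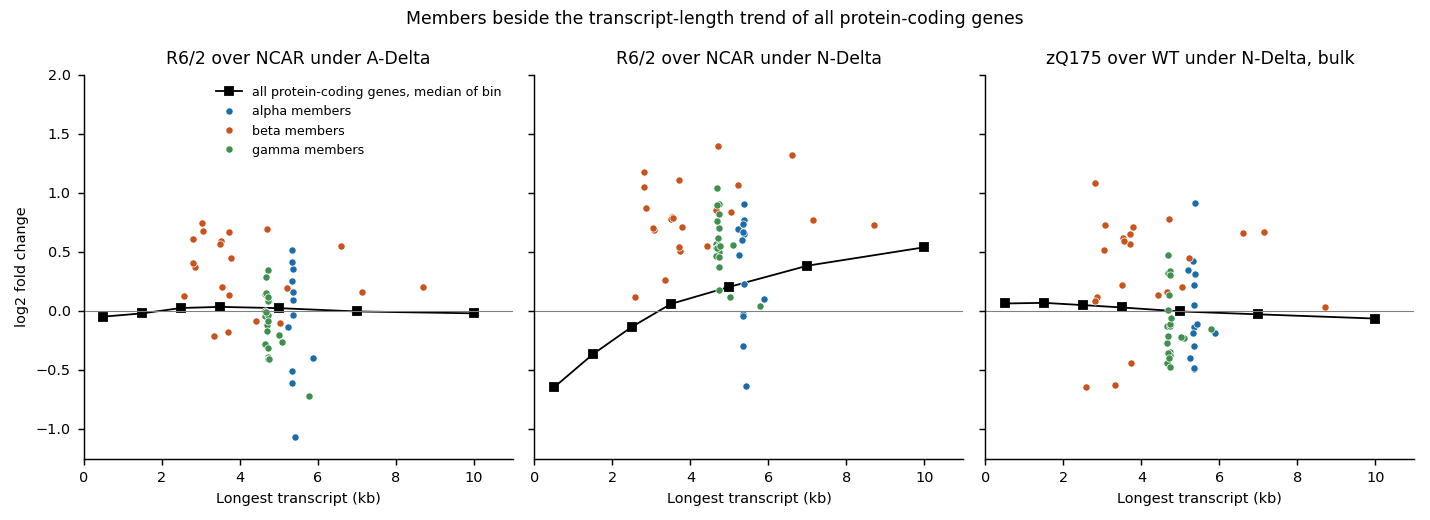
Log2 fold change of each member against the length of its longest transcript in kb, by cluster, beside the median of all protein-coding genes in 7 length bins (squares). Under N-Delta the medians climb from -0.65 to 0.54 and most members lie above them. Under A-Delta and in zQ175 bulk RNA the medians stay between -0.07 and 0.07. There beta genes of 3 to 4 kb had medians of 0.51 and 0.58. The 40 members of 4 to 6 kb had medians of -0.04 and -0.12, and the 4 of 2 to 3 kb 0.39 and 0.10.

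Under A-Delta the bin medians of all genes stayed between -0.05 and 0.03. The 10 beta genes of 3 to 4 kb had a median of 0.51 there, with 5 called higher, and the 40 members of 4 to 6 kb a median of -0.04. In that comparison 646 protein-coding single-exon genes of 2 kb or more outside the clusters had a median of 0.03. Of them 121 were called higher and 115 lower, against 13.7% and 15.3% of all genes. The part of single-exon structure in the beta results was not tested.

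The 2 genotype comparisons of the R6/2 series were also tested against each other. The signed log2 fold change of R6/2 over NCAR was higher under N-Delta than under A-Delta in 21 members and lower in none, against 11.3% and 11.6% of all genes. A higher value was not always a stronger effect. Pcdhgc5 was at -0.72 under A-Delta and 0.04 under N-Delta, and Pcdhac2 at -0.40 and 0.10. The 21 were 2 alpha, 9 beta and 10 gamma genes. Of the 40 members of 4 to 6 kb 17 were among them, against 21.1% of all protein-coding genes in that bin. The count of 21 fell to 0 when NCAR A-Delta 1, R6/2 A-Delta 2, NCAR N-Delta 1 or R6/2 N-Delta 1 was left out. Those fits called 1, 0, 0 and 0 of all genes, in that order, with member medians of 0.54, 0.52, 0.52 and 0.55. The count of members was 13 without NCAR A-Delta 3, 7 without NCAR A-Delta 4 and 0 with the length index in the fit.

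The control viruses differed in NCAR mice: N-Delta libraries had 17 members lower than A-Delta libraries and none higher, against 19% and 18% of all genes. At the members' length the shares were alike: of the 40 members of 4 to 6 kb 14 were lower, against 35.9% of all protein-coding genes in that bin. Pcdhga3 fell by 0.89 (adjusted p 0.0014), Pcdhgc5 by 0.55 (adjusted p 0.00394) and Pcdhac2 by 0.36 (adjusted p 0.0042) on the log2 scale. The count was 0 with the length index in the fit and 0 without NCAR N-Delta libraries 1 and 4. In R6/2 mice no member and 0% of genes were called between the same viruses, where 10 members and 9.9% of genes had an unadjusted p under 0.05 and DESeq2 called 37 genes, none of them a member.

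The A-ZFP virus was followed by no call among members in either genotype. In R6/2, edgeR called 7 genes or 0.0322%, and 1 member and 3.84% of genes had an unadjusted p under 0.05. In NCAR it called 4 genes or 0.0184%, and 1 member and 2.5% of genes had an unadjusted p under 0.05. DESeq2 also called no member in either.

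In R6/2 mice, N-ZFP was followed by lower beta cluster RNA than N-Delta. Of the members, 11 were lower and none higher, against 4.86% and 8.2% of all genes. They comprised 10 beta genes and Pcdhgc3. Of the 40 members of 4 to 6 kb 4 were lower, against 8.29% of all protein-coding genes in that bin. Of the 10 members of 3 to 4 kb 2 were lower, against 5.98%, and of the 4 of 2 to 3 kb 3, against 3.3%. Of the 2 members of 6 to 8 kb 1 was lower, against 9.16%, as was the 1 member over 8 kb, against 7.92%. The median log2 fold change was -0.43 in the beta, -0.21 in the gamma and -0.19 in the alpha cluster, and 0.02 over all genes. In 8 beta genes all N-ZFP libraries were below all N-Delta libraries, as they were in 6.62% of all genes. This comparison shares its R6/2 N-Delta libraries with the genotype comparison under N-Delta.

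Pcdhb21 stood at 5.95, 7.65, 9.09 and 12.6 CPM in R6/2 N-ZFP, below all 4 R6/2 N-Delta libraries (log2 -0.96 ± 0.17, adjusted p 0.000333). Pcdhb22 stood at 13.8, 16.5, 15.7 and 23.9 CPM, also below all of them (-0.89 ± 0.16, adjusted p 0.000645). Pcdhgc3 stood at 38.1, 38.7, 49.9 and 58.6 CPM, below them as well (-0.60 ± 0.14, adjusted p 0.0065). Pcdhb14 averaged 18.2 CPM against 28.0 (-0.63 ± 0.13, adjusted p 0.00176). The other C-type genes gave 0.26 for Pcdhac1 (adjusted p 0.355), -0.04 for Pcdhac2 (adjusted p 0.781), 0.06 for Pcdhgc4 (adjusted p 0.786) and -0.10 for Pcdhgc5 (adjusted p 0.633).

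Summed beta RNA was 192, 231, 259 and 331 CPM in the R6/2 N-ZFP libraries, a spread of 58.4 (SD) around 253, and 393, 348, 363 and 321 in R6/2 N-Delta. N-ZFP library 4 thus lay inside the range of the N-Delta libraries. The length index of the 4 N-ZFP libraries was -0.22, -0.35, 0.03 and 0.40 in the same order. The count of lower members was 5 without N-Delta 1, N-ZFP 1 or N-ZFP 2, 7 without N-Delta 2, 19 without N-ZFP 4 and 2 without N-ZFP 1 and 2 together, and 6 with the length index in the fit. Projection neuron markers summed to 2543 to 5599 CPM in R6/2 N-ZFP and 2397 to 2918 in R6/2 N-Delta, and their part was not tested.

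**Figure D4:**
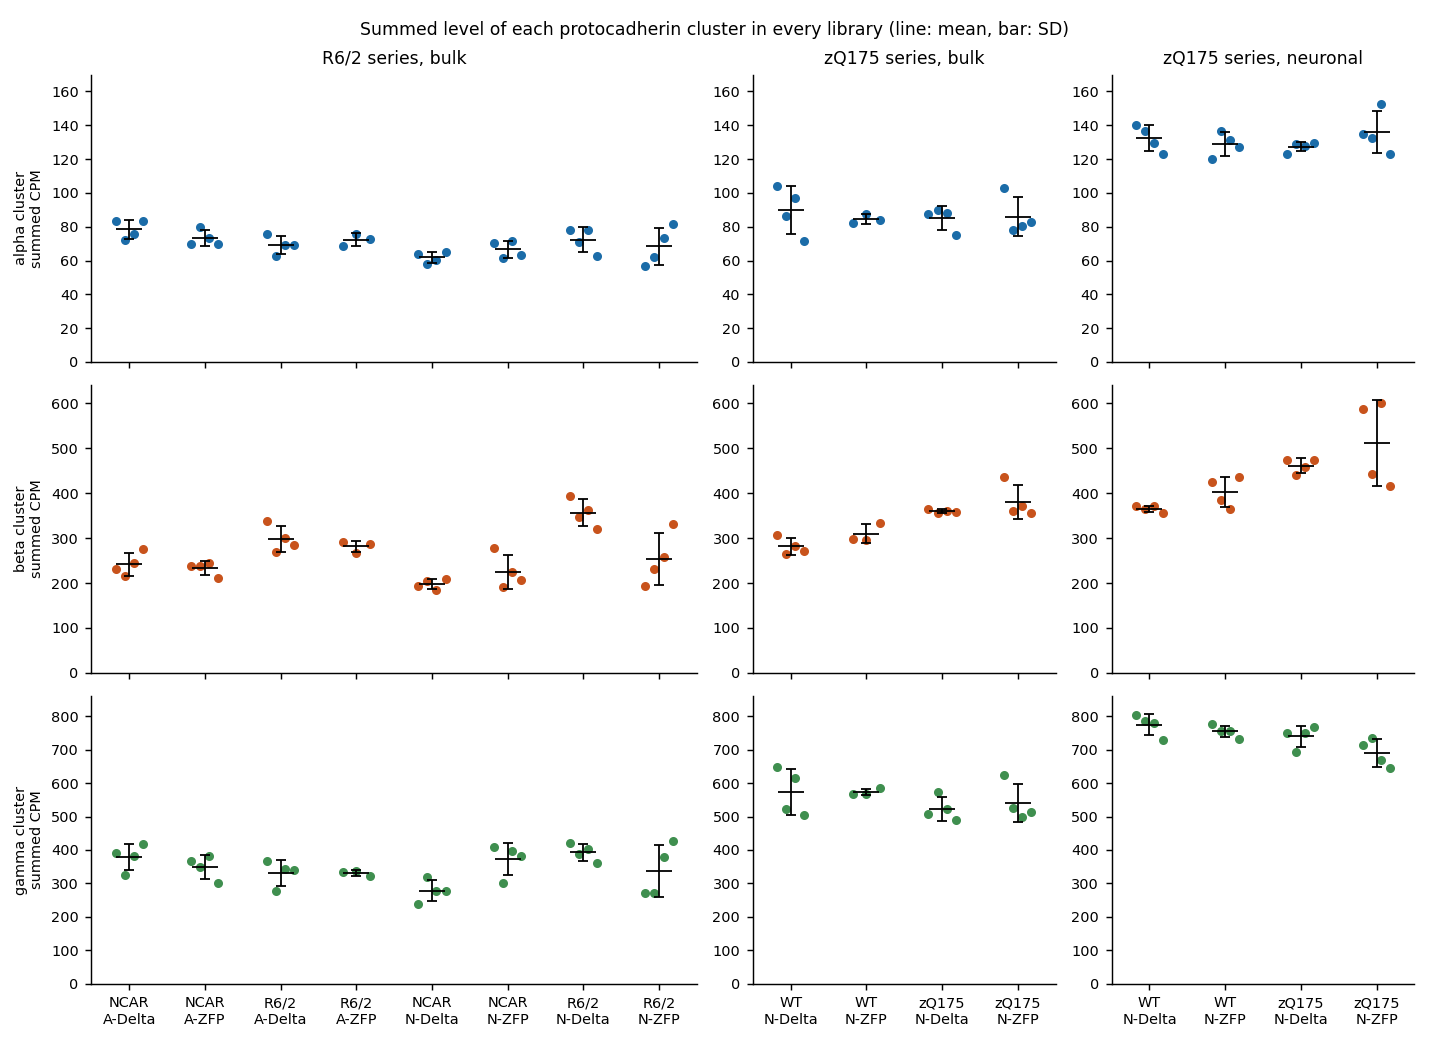
Summed CPM of the alpha, beta and gamma clusters in each library (points) by group, with the group mean as a line and the SD as a bar. Beta RNA is higher in R6/2 N-Delta (321 to 393 CPM) than in NCAR N-Delta (185 to 210), spreads from 192 to 331 in R6/2 N-ZFP, and in zQ175 bulk N-Delta (357 to 365) exceeds WT (265 to 308).

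In NCAR mice N-ZFP went with 7 members higher and none lower, 1 alpha and 6 gamma genes, against 11.8% and 10.2% of all genes. Members were thus called higher about as often as all genes. Of the 40 members of 4 to 6 kb 7 were higher, against 22.7% of all protein-coding genes in that bin. Pcdhga3 averaged 16.4 CPM against 9.37 (log2 0.81 ± 0.17, adjusted p 0.0152), and Pcdhga9 rose by 0.60 (adjusted p 0.0195). The count of members was 0 without N-Delta 1, N-ZFP 1 or N-ZFP 3, where 40, 153 and 39 of all genes were called. It was 1 without N-Delta 4 or N-ZFP 4, where 122 and 170 genes were called. It was 16 without N-ZFP 2, where 6975 genes were called, and 0 with the length index. The N-ZFP effect was lower in R6/2 than in NCAR in 23 members (2 alpha, 11 beta and 10 gamma) and higher in none, against 15.3% and 17% of all genes. Of the 40 members of 4 to 6 kb 16 were lower, against 28% of all protein-coding genes in that bin. The count of 23 became 14 without R6/2 N-ZFP 1 or R6/2 N-ZFP 2 and 2 without both. It was 8 without NCAR N-Delta 1 and 4, and 0 with the length index.

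In 12-month zQ175 bulk striatum, beta cluster RNA was higher than in WT under N-Delta. Of the members, 13 were higher and 6 lower, against 6.44% and 9.57% of all genes. Higher members were 11 beta genes, Pcdhga2 and Pcdhga4. Lower ones were Pcdhb6, Pcdhb8, Pcdhga6, Pcdhga7, Pcdhga8 and Pcdhgb4, and no alpha gene was called. The median log2 fold change was 0.48 in the beta, -0.12 in the alpha and -0.15 in the gamma cluster, against 0.00 over all genes. In 12 beta genes all zQ175 libraries exceeded all WT libraries, as they did in 8.99% of all genes.

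Pcdhb2 stood at 2.64, 2.78, 3.72 and 3.24 CPM in WT and at 6.33, 6.51, 6.43 and 6.92 in zQ175, without overlap (log2 1.08 ± 0.16, adjusted p 6.19e-05). Pcdhb9 stood at 16.9, 14.2, 11.6 and 13.9 against 25.1, 23.4, 24.9 and 20.6 CPM, again apart (0.73 ± 0.10, adjusted p 3.58e-05). Pcdhb20 averaged 15.1 CPM in WT and 22.7 in zQ175 (0.59 ± 0.09, adjusted p 7.07e-05). Not every beta gene rose. Pcdhb8 stood at 14.4, 12.1, 13.0 and 11.5 CPM in WT and at 10.04, 6.61, 7.30 and 9.11 in zQ175 (-0.62 ± 0.18, adjusted p 0.0211), with all zQ175 libraries lower. Pcdhga8 went from 34.0, 37.8, 35.4 and 35.3 CPM to 24.0, 25.8, 25.7 and 26.9 (-0.48 ± 0.06, adjusted p 2.16e-05), also without overlap.

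None of the C-type genes was called in zQ175 bulk RNA. Their log2 fold changes were -0.11 for Pcdhac1 (adjusted p 0.793), -0.18 for Pcdhac2 (adjusted p 0.213), 0.01 for Pcdhgc3 (adjusted p 0.962), -0.22 for Pcdhgc4 (adjusted p 0.306) and -0.15 for Pcdhgc5 (adjusted p 0.343). The value for Pcdhac2 was -0.29 (adjusted p 0.014) without WT N-Delta 4. The count of called members was 12 in place of 19 without WT N-Delta 1. Pcdhga2 rose by 0.47 ± 0.12 (adjusted p 0.00997), and Pcdhga7 fell by 0.37 ± 0.11 (adjusted p 0.0249). Projection neuron markers summed to 7622 to 9281 CPM in WT and 3793 to 4099 in zQ175, while general neuron markers were at 5457 to 5729 against 5205 to 5388, and their part was not tested.

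Neuronal RNA of the same genotypes gave 13 members higher and 4 lower, against 3.33% and 6.03% of all genes. Higher members were 9 beta genes, Pcdhga2, Pcdhga4, Pcdhgb1 and Pcdhgc3, and lower ones were Pcdhb1, Pcdhga6, Pcdhga8 and Pcdhgb7. Pcdhb1 ranked 57 of 57 members by level per kb in neuronal RNA, at a mean of 1.57 CPM, with an 18.2-fold range between libraries. Summed beta RNA was 371, 364, 371 and 357 CPM in WT and 473, 440, 458 and 475 in zQ175, with no overlap. Pcdhb9 stood at 14.6, 16.5, 15.3 and 15.1 CPM in WT and at 27.4, 23.6, 25.2 and 25.3 in zQ175 (log2 0.72 ± 0.09, adjusted p 5.74e-05), and Pcdhb22 at 20.6, 18.2, 17.6 and 20.03 against 36.9, 31.1, 32.9 and 37.1 (0.85 ± 0.14, adjusted p 0.000763). In both genes all zQ175 libraries were higher.

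Pcdhgc3 stood at 39.0, 32.8, 28.2 and 35.6 CPM in WT neuronal RNA and at 48.1, 48.1, 45.9 and 42.8 in zQ175, without overlap (0.44 ± 0.11, adjusted p 0.014). Pcdhga8 stood at 60.5, 54.1, 57.3 and 56.6 against 33.4, 38.5, 46.3 and 43.7 CPM, with all zQ175 libraries lower (-0.49 ± 0.10, adjusted p 0.00439). Pcdhgb1 rose by 0.67 ± 0.13 (adjusted p 0.00308) and Pcdhga4 by 0.48 ± 0.11 (adjusted p 0.00878). The count of called members was 11 without WT neuronal library 3, without zQ175 neuronal library 2, or without the filter on low counts. Projection neuron markers summed to 12380 to 15040 CPM in WT and 5386 to 6081 in zQ175 neuronal RNA, and their part was not tested.

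The zQ175 effect was not shown to differ between neuronal and bulk RNA. In the test of that difference edgeR called no member and 0.0239% of genes, 2 members and 6.57% of genes had an unadjusted p under 0.05, and DESeq2 called no member. Both comparisons called Pcdhb2, Pcdhb3, Pcdhb9, Pcdhb16, Pcdhb19, Pcdhb20, Pcdhb21, Pcdhb22, Pcdhga2 and Pcdhga4 higher, 10 of the 13 in each, and Pcdhga6 and Pcdhga8 lower. How often all genes were called in both is not given here, so the overlap is a description of the members only.

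Position along the gamma cluster went with direction in zQ175 RNA, a pattern chosen after the values were seen and not tested. The first 5 gamma genes (Pcdhga1, Pcdhga2, Pcdhga3, Pcdhgb1 and Pcdhga4) had log2 fold changes from 0.14 to 0.47 in bulk and from 0.13 to 0.67 in neuronal RNA. The next 13, from Pcdhgb2 to Pcdhga12, all lay below 0 in bulk RNA (-0.48 to -0.06), and 11 of them did in neuronal RNA. The correlation with gene order over the 21 gamma genes was -0.52 in bulk and -0.40 in neuronal RNA. In the R6/2 comparison under A-Delta 3 of the first 5 and 2 of the next 13 were above 0, and under N-Delta all 18 were.

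**Figure D5:**
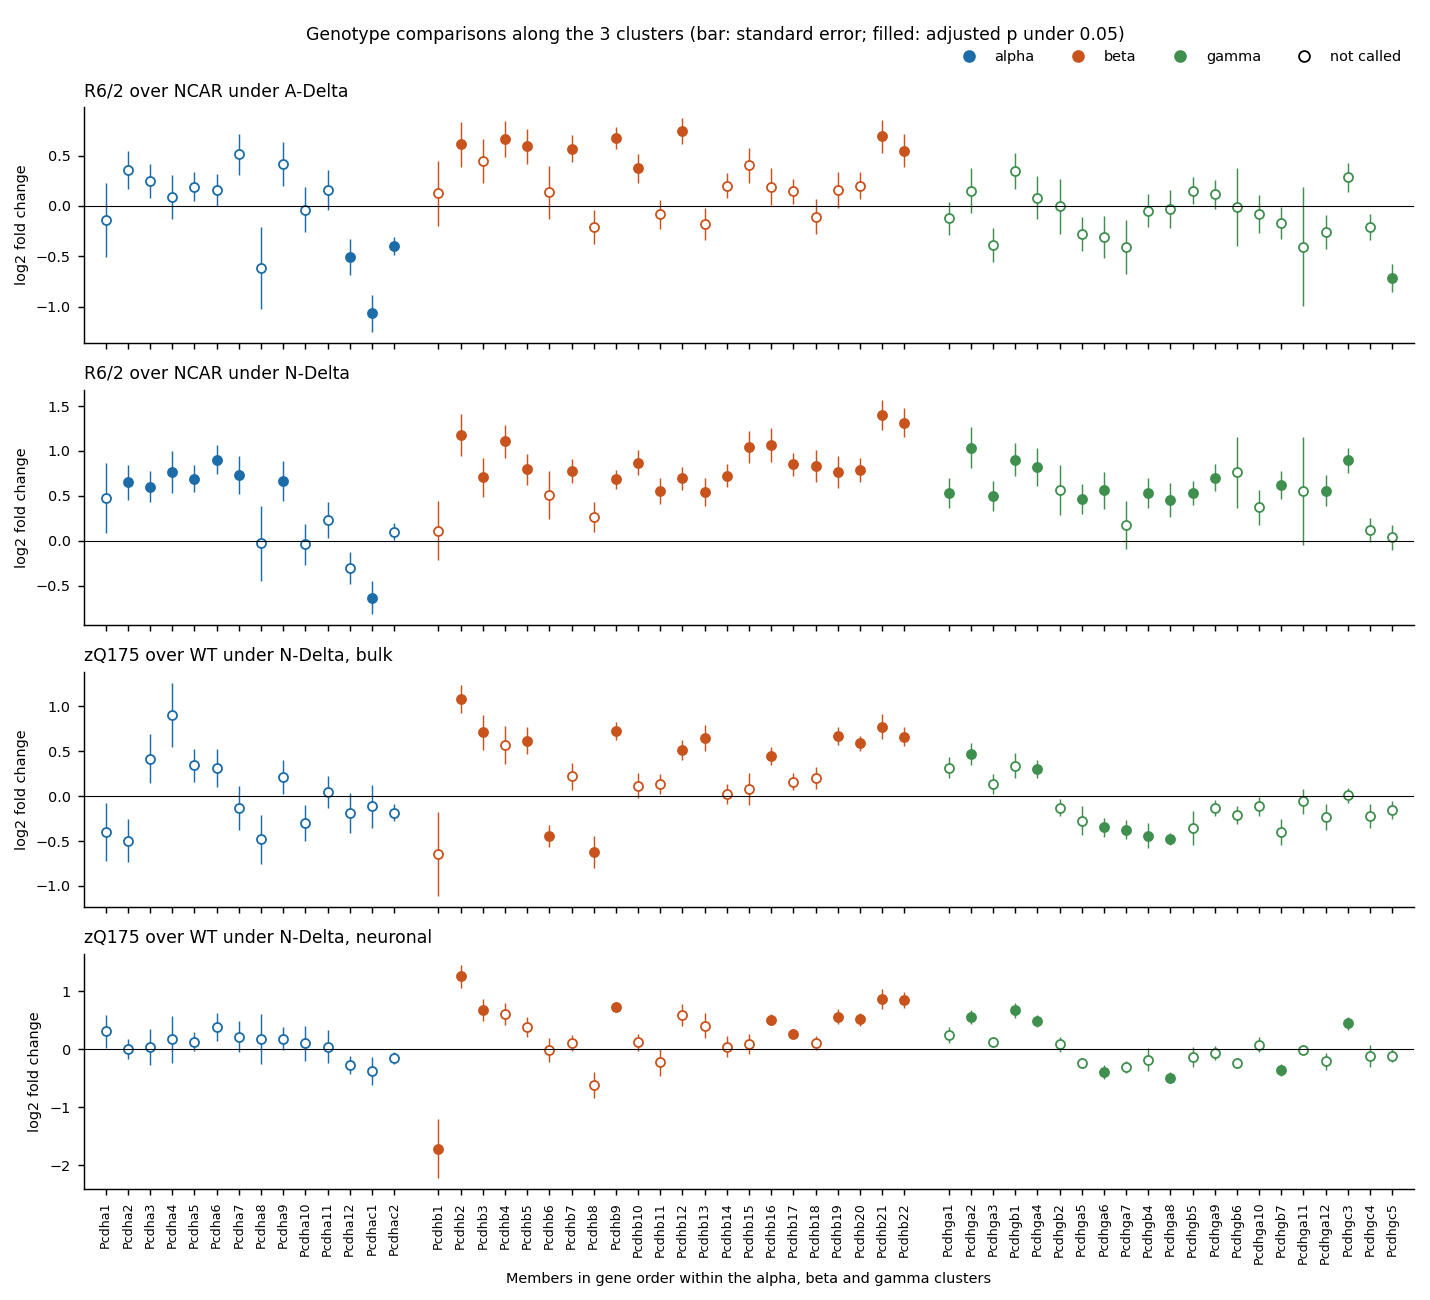
Log2 fold changes of the 57 members in their order along the alpha, beta and gamma clusters in the 4 genotype comparisons (bars, standard errors; filled points, adjusted p under 0.05). Beta genes lie mostly above 0 in each, with medians of 0.29, 0.78, 0.48 and 0.40, and in zQ175 RNA the gamma genes fall from above to below 0 after the first 5.

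Set against each other within a library, beta RNA gained on the alternate gamma isoforms in both models. The ratio of summed beta to summed non-C-type gamma CPM was 1.05, 1.18, 1.17 and 1.12 in NCAR A-Delta and 1.44, 1.58, 1.53 and 1.48 in R6/2 A-Delta. In WT bulk N-Delta it was 0.681, 0.726, 0.662 and 0.759 and in zQ175 1.04, 0.902, 1.03 and 1.04. In neuronal RNA it was 0.611, 0.603, 0.633 and 0.644 in WT and 0.861, 0.870, 0.800 and 0.821 in zQ175. The groups did not overlap in these 3 comparisons. Under N-Delta in the R6/2 series they did, with 1.099 to 1.42 in NCAR and 1.38 to 1.55 in R6/2. The C-type share of alpha RNA was 57.2 to 61.0% in NCAR A-Delta and 48.0 to 50.2% in R6/2 A-Delta, and 56.2 to 59.7% against 49.9 to 54.1% under N-Delta. In zQ175 bulk RNA it was 43.6 to 47.5% against 46.0 to 51.9% in WT, which overlapped. These ratios and shares describe the libraries and carry no test.

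The genotype comparisons of the 2 series share no library. Pcdhb2, Pcdhb5, Pcdhb9, Pcdhb12, Pcdhb21 and Pcdhb22 were called higher both in R6/2 under A-Delta and in zQ175 bulk RNA, 6 of the 9 higher members in the first and 6 of the 13 in the second. Pcdhb2, Pcdhb9, Pcdhb21 and Pcdhb22 were higher in all 4 genotype comparisons. The share of all genes called in several comparisons at once is not given here. This overlap is therefore not shown to be particular to the clusters. Pcdhga6, Pcdhga8, Pcdhgb4 and Pcdhgb7 were called higher in R6/2 under N-Delta and lower in bulk or neuronal zQ175 RNA. Under A-Delta their estimates were -0.31, -0.03, -0.05 and -0.17, none of them called, and with the length index in the N-Delta fit no gamma gene was called higher. In all, 9 members, including Pcdhgc4, were called in none of the 4.

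N-ZFP was followed by no called member in any of its 4 comparisons of the zQ175 series. In zQ175 bulk RNA edgeR called 0% of genes, and 2 members and 5.39% of genes had an unadjusted p under 0.05. In WT bulk RNA it also called 0%, with 4 members and 8.09% of genes under that p, and in WT neuronal RNA 0.126%, with 5 members and 6.06%. DESeq2 called no member in these 3. In zQ175 neuronal RNA edgeR called 0.329% of genes, 10 members and 30.4% of genes had an unadjusted p under 0.05, and DESeq2 called 3 members. Summed beta RNA there was 588, 442, 599.96 and 417 CPM in the N-ZFP libraries, so that libraries 1 and 3 lay above the 4 zQ175 N-Delta libraries, at 473, 440.01, 458 and 475 CPM. The same 2 libraries had 2.51% and 4.31% of counts from mitochondrial genes, against 0.291% and 0.416% in the others, and totals of 6524661 and 4610476 counts. The part of these features was not tested. The count by edgeR was 10 without library 2, 3 without library 4, and 0 when both libraries 1 and 3 were left out.

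Genes around and behind the clusters moved in part. Of 25 regulators of the clusters, including CTCF, cohesin and DNA methylation genes, 9 were higher and 1 lower in R6/2 under A-Delta, against 13.7% and 15.3% of all genes. Under N-Delta, where the length index differed between the groups and was not adjusted for in this list, 20 were higher and 1 lower, against 27.1% and 28.4%. In zQ175 bulk RNA 2 were higher and 4 lower, against 6.44% and 9.57%. Stag2, a cohesin subunit, rose by 0.42 (adjusted p 1.43e-05) and Smchd1, a chromatin protein that silences the clusters, by 0.50 (adjusted p 0.000237) in R6/2 under A-Delta. In zQ175 bulk RNA Dnmt3a, a DNA methyltransferase, fell by 0.44 (adjusted p 0.00183) and the cohesin subunit Rad21 rose by 0.20 (adjusted p 0.00743). Of 19 binding or processing partners, 4 were higher and 9 lower in R6/2 under A-Delta, against the same 13.7% and 15.3% of all genes, and Wasf1 of the WAVE complex fell by 0.86 (adjusted p 4.22e-07). In zQ175 bulk RNA 1 partner was higher and 7 lower, against 6.44% and 9.57%. Of the protocadherins outside the clusters, 3 of 12 were higher and 1 lower in R6/2 under A-Delta, and 4 of 11 were higher and 1 lower in zQ175 bulk RNA, to be read against the same shares. Pcdh20 rose by 1.19 (adjusted p 2.35e-06) in the first and by 1.22 (adjusted p 2.23e-06) in the second on the log2 scale.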

How the data were processed

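The 62 libraries hold total RNA from mouse striatum. Per the labels' protocols, RNeasy kits gave the RNA and a stranded TruSeq kit the libraries. Per the submitters' processing notes, STAR, HTSeq and mm10 were used, with versions not given in the sources used here. The authors deposited unnormalized read counts by gene. Genes were named through GENCODE M21, which matched 48435 of 48795 (360 did not); of 2 genes it names Pcdha11, the first is called Pcdha10 after its RefSeq start. Pcdhgb8, annotated as a pseudogene, was left out. How reads matching several members were counted is not given, so closely related members are uncertain to that extent. The row of Pcdhga10 held counts although none of its exonic bases is its own over both strands, so counts were separated by strand.

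Counts were tested in edgeR 4.0.16 (R 4.3.3): TMM, filterByExpr, quasi-likelihood fit and test, Benjamini-Hochberg adjustment over all genes tested, called at an adjusted p under 0.05. The R6/2 series, zQ175-series bulk libraries, neuronal libraries, and the N-Delta libraries of the zQ175 series each had 1 fit, giving 18 comparisons. CPM are TMM-scaled. A count of 0 allows up to 3 counts, or 0.0296 to 0.0609 CPM in the R6/2 series, 0.268 to 0.346 in zQ175-series bulk and 0.246 to 0.651 in neuronal libraries, for counting error only. Alternatives were median-ratio size factors, no filter, DESeq2 1.42.0, length and GC offsets (lowess, span 0.2), the length index as covariate, a replicate block and leaving out libraries. The tests were checked on simulated counts. No 2 libraries of a group were identical. Members, lists and tests were chosen with earlier results of these data known. Named genes were up to 3 called members of each cluster with the smallest p per comparison, the C-type genes, up to 3 called genes of each further list, and a few others taken after their values were seen. Protein or DNA sequences of the members are not printed.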

Additional observations from a re-analysis of the deposited data

Results flagged for a closer look

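Of 214 groups of 4 libraries examined, 6 had 1 library apart from the rest by Dixon's criterion. Chance gives about 1 in 20, so these 6 are no more than chance would give. The C-type share of gamma RNA was 44.79% in NCAR A-ZFP library 3 against 47.35 to 47.8% in the others, 32.9% in zQ175 N-ZFP bulk library 3 against 31.78 to 31.97%, and 18.8% in zQ175 N-ZFP neuronal library 3 against 23.93 to 24.89%. The C-type share of alpha RNA was 40.75% in zQ175 N-ZFP bulk library 1 against 45.25 to 46.09%. Pcdha12 was at 4.07 CPM in R6/2 A-Delta library 1 against 4.49 to 4.57, and Pcdha5 at 4.28 CPM in R6/2 N-ZFP library 4 against 3.25 to 3.36.

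The signed log2 fold change of R6/2 over NCAR was higher under N-Delta than under A-Delta in 21 members by the tested difference. This includes members that were lower in R6/2 under A-Delta, such as Pcdhgc5 and Pcdhac2. Among them the difference was 0.71 for Pcdhb17, 0.94 for Pcdhb18, 0.77 for Pcdhb22, 0.76 for Pcdhgc5, 0.89 for Pcdhga3, 0.79 for Pcdhgb7, 0.50 for Pcdhac2 and 0.75 for Pcdha6, on the log2 scale. The N-ZFP effect was lower in R6/2 than in NCAR in 23 members. That difference was -1.09 for Pcdhgc3, -0.73 for Pcdhga9, -0.63 for Pcdhgb5, -1.19 for Pcdhb22, -1.05 for Pcdhb21, -0.78 for Pcdhb17, -0.91 for Pcdha6 and -0.55 for Pcdha5. Both counts are 0 with the length index in the fit.

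The row of Pcdhgb8, annotated as a pseudogene and used in no comparison, held 418 counts over the libraries of the R6/2 series, 52 in the bulk and 46 in the neuronal libraries of the zQ175 series.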

How the results depend on the processing

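Among 73 named calls of members, DESeq2, median-ratio size factors and the replicate block kept the call in 73, no filter in 71, length and GC offsets in 60 and the length index in 35. Leaving out single libraries kept 631 of 712. Whether replicate numbers pair the samples was not settled. In no comparison did every same-numbered pair correlate over 0.1, and the means ran from -0.07 to 0.20, a rule that cannot exclude pairing. The mean of 0.20 was that of neuronal over bulk RNA in WT N-Delta. There the 4 same-numbered pairs lay between 0.04 and 0.29, against a mean of -0.07 for other pairs. With the replicate block as a term 13 members were called in R6/2 over NCAR under A-Delta, 41 under N-Delta, 11 for N-ZFP in R6/2, 18 in zQ175 bulk and 17 in zQ175 neuronal RNA.

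With the length index as a covariate the counts were 8 for R6/2 over NCAR under N-Delta, 6 for N-ZFP in R6/2, and 0 for N-ZFP in NCAR, for N-Delta over A-Delta in NCAR, for the R6/2 effect between viruses and for the N-ZFP effect between genotypes. With length and GC offsets the last 4 were 2, 6, 8 and 15. DESeq2 called 12 for N-ZFP in NCAR and 3 for N-ZFP in zQ175 neuronal RNA. No filter gave 11 for zQ175 neuronal RNA. Leaving out NCAR N-Delta 1 and 4, chosen after seeing the data, gave 0, 0, 0 and 8 for the same 4, and leaving out R6/2 N-ZFP 1 and 2, likewise chosen, gave 2 for N-ZFP in R6/2 and 2 for its difference between genotypes. The cause of these changes was not tested.

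Leaving out 1 library at a time gave 10 to 13 calls for R6/2 over NCAR under A-Delta and 37 to 41 under N-Delta, 0 to 0 for both A-ZFP comparisons, 5 to 19 for N-ZFP in R6/2, 0 to 16 in NCAR, 9 to 20 for N-Delta over A-Delta in NCAR, 0 to 25 for the R6/2 effect between viruses, 14 to 30 for the N-ZFP effect between genotypes, 12 to 21 for zQ175 bulk, 11 to 14 for zQ175 neuronal, 0 to 10 for N-ZFP in zQ175 neuronal and 35 to 39 for neuronal over bulk.

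Estimates that changed sign were uncalled in the main fit except that of Pcdhb15. In R6/2 over NCAR under N-Delta, length and GC offsets gave -0.22 for Pcdhac2, -0.16 for Pcdhgc4 and -0.32 for Pcdhgc5, the first and last called (adjusted p 0.024 and 0.0071). The length index gave -0.13, -0.030 and -0.44 (the last called, adjusted p 0.018), and Pcdhgc5 was at -0.065 without NCAR N-Delta 1 and 4. In N-ZFP in R6/2, Pcdhac2 was at 0.055 with the offsets, 0.051 with the index and 0.11 without N-ZFP 1 and 2, and Pcdhgc5 at 0.092 with the index and 0.10 without those libraries. The index also gave 0.011 for Pcdhb15 in N-Delta over A-Delta in NCAR, 0.038 for Pcdhac1 in zQ175 bulk RNA and -0.16 for Pcdhac1 in neuronal over bulk RNA. Leaving out 1 library moved Pcdhgc4 between -0.021 and 0.20 and Pcdhgc5 between -0.043 and 0.15 in the N-Delta comparison, Pcdhac2 between -0.14 and 0.024 and Pcdhgc4 between -0.042 and 0.20 for N-ZFP in R6/2, and Pcdhac1 between -0.25 and 0.037 and Pcdhgc3 between -0.045 and 0.059 in zQ175 bulk RNA. Low depth in the zQ175 series limits genes such as Pcdhb1, at 0.170 CPM in 1 neuronal library.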

Other observations

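Individual libraries of the R6/2 series differed widely in some alternate gamma isoforms. Pcdhga11 ranged from 2.14 to 24.1 CPM over the 31 libraries, an 11.3-fold range, against 1.66-fold over the 15 bulk and 1.45-fold over the 16 neuronal libraries of the zQ175 series. In NCAR A-Delta it stood at 20.8, 9.23, 12.9 and 4.89 CPM, and in R6/2 N-ZFP at 9.23, 2.78, 14.3 and 24.1. Pcdhgb6 ranged 6.68-fold in the R6/2 series, from 4.83 to 32.3 CPM, and 1.62-fold and 1.51-fold in the others. The median range over the 57 members was 2.46-fold, 2.03-fold and 2.04-fold in the 3 sets, and neither of these genes was called in a genotype comparison.

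Some neighbours of the clusters on chromosome 18 were called in R6/2 under A-Delta, where 13.7% of all genes were called higher and 15.3% lower. Whether the region moved more than other genes was not tested. Wdr55 rose by 0.27 (adjusted p 0.00549), Hars by 0.28 (adjusted p 0.00153), Hars2 by 0.34 (adjusted p 0.0106) and Fchsd1 by 0.49 (adjusted p 0.00124) on the log2 scale by edgeR, and Rell2 fell by 0.23 (adjusted p 0.014). Taf7, which lies between the beta and gamma clusters, was at -0.06, Diaph1 at -0.05 and Hdac3 at -0.01, none of them called. Under N-Delta these 3 were called, Taf7 at -0.37, Diaph1 at 0.55 and Hdac3 at -0.32, while Wdr55 (-0.03) and Hars2 (-0.20) were not. There 27.1% of all genes were called higher and 28.4% lower. The length index differed between those groups and was not adjusted for here. In zQ175 bulk RNA Rell2 rose by 0.31 (adjusted p 0.00865).

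Pcdh20, a protocadherin outside the clusters, stood out in zQ175 neuronal RNA, where it averaged 51.5 CPM against 13.5 in WT (log2 1.93 ± 0.29, adjusted p 0.000404 by edgeR). Pcdh11x rose there by 0.53 (adjusted p 0.00254), and the WAVE complex subunit Brk1 fell by 0.57 (adjusted p 0.014).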
